A study of Homo sapiens with 6 samples.

Results

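The genes described here are the PGC-1 coactivators and the factors that work with them in mitochondrial biogenesis. They were taken by symbol from a deposited gene table of 48114 rows: the coactivators PPARGC1A, PPARGC1B and PPRC1, the transcription factors NRF1 and YY1, the orphan receptors ESRRA and ESRRG, the lipid receptors PPARA and PPARD, and the fission protein MTFP1. All 10 symbols matched 1 row each, and 8 of them passed a filter on low values (3 or more libraries with a normalized count of 10 or higher), as did 23923 rows in all. RNA was sequenced from TC-71 cells, an established line from a human Ewing sarcoma whose genotype is labelled WT, after 16 h in BEZ235 (3 libraries) or in its solvent DMSO (3 libraries). BEZ235 inhibits PI3K and mTOR; the sources used here do not give its dose. Both arms come from 1 cell line in culture, and the labels describe the libraries of an arm as biological replicates.

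PGC-1 coactivators do not bind DNA themselves. They dock on transcription factors such as NRF1, YY1, the estrogen-related receptors and the PPARs, and raise the transcription of nuclear genes for respiration, fatty acid oxidation and the copying of the mitochondrial genome. In muscle cells mTOR has been reported to control mitochondrial genes through a complex of PGC-1alpha, the product of PPARGC1A, with YY1. In other cells mTOR has been reported to control MTFP1, a protein of the inner mitochondrial membrane that promotes fission, at the level of translation, which mRNA counts do not measure.

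In this line PPARGC1A and ESRRG were at the limit of detection with and without BEZ235, and most of the remaining genes differed little between the arms. Of the 8 tested genes, 2 rose with BEZ235, PPRC1 by 1.27-fold and MTFP1 by 1.22-fold, and 6 did not pass the test (limma with Benjamini-Hochberg adjustment over all 23923 genes, threshold 0.05). Over all tested genes 66.3% passed, 33.1% of them higher and 33.2% lower with BEZ235 as shares of the tested genes. None of the 8 was lower by limma, where 0 were lower at an unadjusted p under 0.05, and edgeR and DESeq2 also called 0 lower. The arms were separate for 1 of the 8 genes, against 70.9% of all tested genes, and 0 of the 8 passed with a change of at least 2-fold, against 26.3%. The median absolute log2 fold change was 0.10 for the 8 genes and 0.60 for all tested genes, and each of the 8 lay below that overall median. In bulk RNA, fewer cells of a type and less RNA per cell cannot be told apart, and a change in the total RNA of a cell would not show in normalized counts.

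The libraries held 184790722 to 233767211 reads, and the 3 reads that a value of 0 cannot exclude amounted to 2.50 to 3.47 normalized counts. The line's label was checked with 9 Ewing sarcoma genes, all of which passed the filter; their summed normalized counts ran from 288800 to 297214 with BEZ235 and from 344998 to 366733 with DMSO, with 4 of the 9 higher (NKX2-2, LINGO1, STEAP1 and PAX7), 4 lower (CD99, NR0B1, BCL11B and CCK) and FLI1 not past the test. Of 6 blood markers 1 passed the filter, and CD3E and HBB were at 0 in every library. The marker that passed, LYZ, rose to 34.0 normalized counts in BEZ235, against 9.42 in DMSO (log2 fold change 2.13, limma adjusted p = 0.0335). Of 5 endothelial markers 0 passed, with sums of 11.6 to 13.8 normalized counts in BEZ235 and 2.06 to 21.6 in DMSO; KDR was at 0 in all BEZ235 libraries. Of 6 epithelial markers 4 passed, KRT5 and KRT19 were at 0, and the list summed to 1099 to 1325 in BEZ235 and 1698 to 1743 in DMSO. KRT8 fell to 638 normalized counts in BEZ235, against 1263 in DMSO, while EPCAM rose to 115, against 55.3. KRT18 and CDH1 did not pass the test. Fibroblast and muscle markers passed for 4 of 6 and summed to 28324 to 31131 in BEZ235 and 21493 to 22818 in DMSO, most of it COL3A1, which rose by 0.49 on the log2 scale, while LUM in the same list fell to 135 normalized counts in BEZ235, against 863 in DMSO; MYOD1 did not pass the filter. The part of these differences in the results below was not tested.

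**Figure D1:**
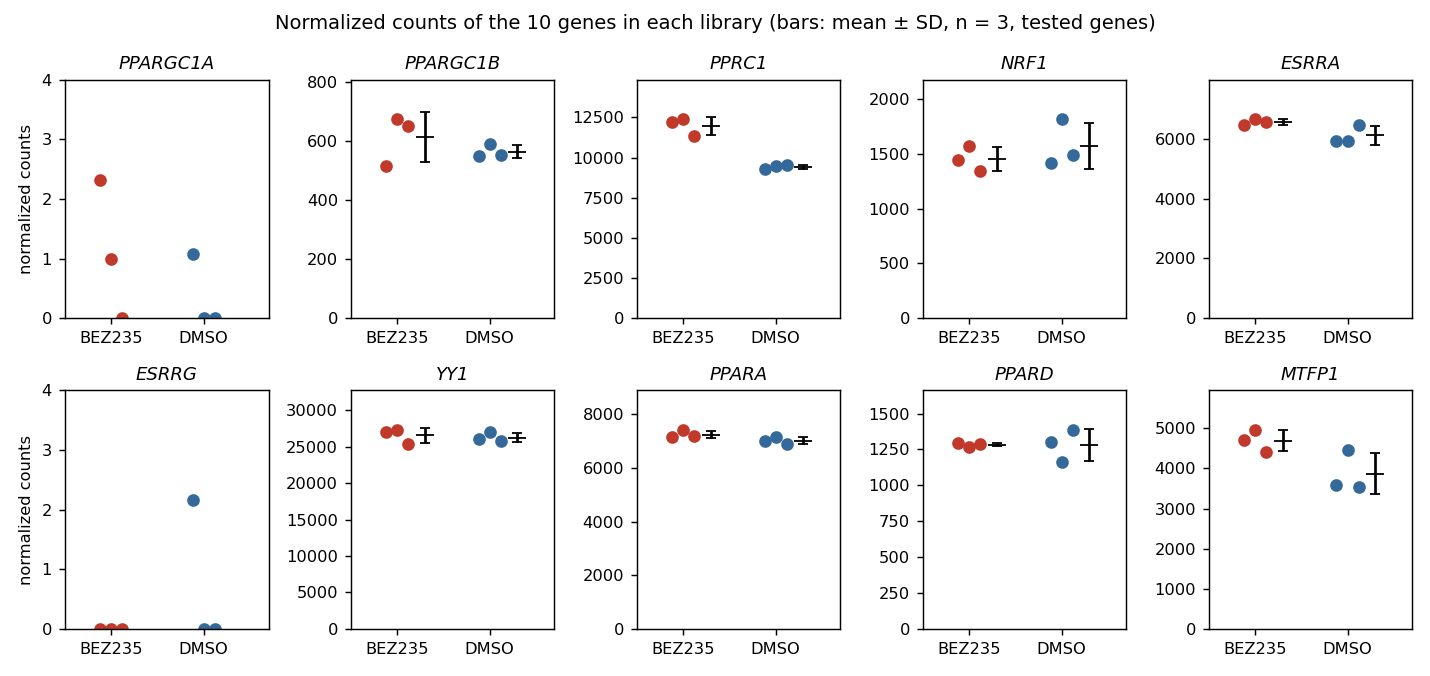
Normalized counts of the 10 genes in each library, with BEZ235 in red on the left of each panel and DMSO in blue on the right; each axis starts at 0, points are libraries and bars show mean ± SD (n = 3) for tested genes. PPRC1 is the gene whose groups do not overlap, with 11323 to 12373 in BEZ235 and 9275 to 9542 in DMSO, while PPARGC1A and ESRRG stay below 3 in all 6 libraries.

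The coactivators differed from each other mainly in level. PPARGC1A (FASTDB gene GSHG0033360, hg38 chromosome 4, 23792021 to 24472905), the family member known from muscle, brown fat and liver, had 2.32, 0.99 and 0.00 normalized counts in BEZ235 libraries, against 1.08, 0.00 and 0.00 in DMSO libraries. These values stand for 3 reads over the BEZ235 arm and 1 read over the DMSO arm. Every library was under the value of 3 reads, so no fold change is given and a difference was not detectable at this depth.

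PPARGC1B, which codes for PGC-1beta (GSHG0034855, chromosome 5, 149730252 to 149855022), had 517, 674 and 651 normalized counts in BEZ235 libraries, against 551, 591 and 554 in DMSO libraries. The groups overlapped, with BEZ235 replicate 1 lowest of all 6. The log2 fold change was 0.11 (SE 0.118, 95% interval -0.15 to 0.37, limma adjusted p = 0.434), so the data allow a fold from 0.90 to 1.29. The value was 0.23 without BEZ235 replicate 1 (adjusted p = 0.0998), 0.037 without BEZ235 replicate 2, 0.063 without BEZ235 replicate 3, 0.17 with quantile normalization and 0.013 with total-count scaling; over all alternatives the adjusted p ran from 0.0998 to 0.936.

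PPRC1, also called PRC, a coactivator of NRF1 that is known to respond to growth signals (GSHG0004419, chromosome 10, 102133030 to 102150333), had 12246, 12373 and 11323 normalized counts in BEZ235 libraries, against 9275, 9460 and 9542 in DMSO libraries. All BEZ235 libraries lay above all DMSO libraries. The means were 11981 ± 573 in BEZ235 and 9425 ± 137 in DMSO (SD, n = 3 each), a log2 fold change of 0.35 (SE 0.053, 95% interval 0.23 to 0.46, limma adjusted p = 0.000152). This is the largest absolute change of the 8 tested genes, and 69.0% of all tested genes had a larger one.

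Per length, PPRC1 made up nearly all of the coactivator mRNA. Divided by the exon length in GENCODE 29 (5372 bases for PPRC1, 12324 for PPARGC1B, 8997 for PPARGC1A), PPRC1 had 2230 ± 107 normalized counts per kb in BEZ235 and 1755 ± 25.5 in DMSO. PPARGC1B had 49.8 ± 6.90 per kb in BEZ235 and 45.9 ± 1.80 in DMSO. The PPRC1 share of the summed level per kb of the 3 coactivators was 97.6 to 98.2% with BEZ235 and 97.3 to 97.5% with DMSO. The ranges almost met, at 97.56% in BEZ235 replicate 3 and 97.53% in DMSO replicate 3. The highest share was in BEZ235 replicate 1, the library with the lowest PPARGC1B count. These lengths count every exon of the basic transcripts, and the isoforms that TC-71 uses are not known from the table.

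The promoters of the genes that rose and of ESRRA are shown because coactivators act through factors bound near gene starts. The sequences are from RefSeq (GRCh38.p14), which held an entry for 9 of the 10 genes; NRF1 had none. Each is the 250 bases before the start in 1 RefSeq entry of the gene, plus strand, 5′ to 3′. Capitals mark letters that matched one of the motifs named below. Other sources place some starts earlier. The GENCODE gene starts at 30425530 for MTFP1 and 102132994 for PPRC1, and the counted rows start at 30425664 and 102133030. These positions lie inside the printed stretches, so by those starts both are only partly upstream.
PPRC1, chr10:102132790-102133039: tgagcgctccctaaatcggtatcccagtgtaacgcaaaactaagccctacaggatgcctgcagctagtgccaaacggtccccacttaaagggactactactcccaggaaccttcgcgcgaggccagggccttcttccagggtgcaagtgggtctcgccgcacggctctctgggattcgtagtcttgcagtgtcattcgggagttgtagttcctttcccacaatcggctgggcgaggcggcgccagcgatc
ESRRA, chr11:64305274-64305523: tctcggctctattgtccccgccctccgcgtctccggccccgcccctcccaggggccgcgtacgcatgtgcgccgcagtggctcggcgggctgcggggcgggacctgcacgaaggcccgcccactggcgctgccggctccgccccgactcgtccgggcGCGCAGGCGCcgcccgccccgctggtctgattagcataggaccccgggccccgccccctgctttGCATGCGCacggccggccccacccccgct
MTFP1, chr22:30425518-30425767: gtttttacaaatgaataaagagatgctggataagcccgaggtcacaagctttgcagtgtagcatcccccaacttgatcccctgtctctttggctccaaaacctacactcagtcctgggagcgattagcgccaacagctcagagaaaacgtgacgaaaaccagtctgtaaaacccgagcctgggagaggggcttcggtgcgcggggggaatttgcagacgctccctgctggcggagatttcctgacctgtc
PPRC1, YY1 letters past the start, chr10:102133056-102133085: ttcaggggccAAGATGGCGgcgcgccgggg

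The search ran on both strands from 250 bases before to 50 bases after the start, over 18 promoter entries of the 9 genes and all 35116 entries in the table. The YY1 letters AANATGGCG were in 1 of the 18 entries, against 3.19% of all entries. That entry is of PPRC1, where they begin at base 27, counting the start as base 1. The longer NRF1 motif, the letters GCGC and TGCGC separated by any 1 base, was in 2 of the 18 entries, against 5.78% of all entries. These entries are of ESRRA and PPARA. The shorter NRF1 letters GCATGCGC lie within the longer form where that base is A. They were in 2 of the 18 entries, of the same 2 genes, against 3.05% of all entries. In ESRRA the longer form begins 93 bases and the shorter form 29 bases before the start. The letters AAGGTCA, bound by estrogen-related receptors, were in 1 of the 18 entries, of ESRRG, against 3.92% of all entries. The GABP letters CCGGAAGT and the CREB letters TGACGTCA were in 0 of the 18 entries, against 4.14% and 1.85% of all entries. The MTFP1 window held none of these letters. A match describes the sequence and not binding in these cells.

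The transcription factors that carry PGC-1 to DNA were measured at mid to high counts and did not pass the test. YY1, a zinc finger factor that can activate or repress (GSHG0012500, chromosome 14, 100238985 to 100282792), had 27073, 27260 and 25373 normalized counts in BEZ235 libraries, against 26011, 26983 and 25745 in DMSO libraries. The groups overlapped. Its log2 fold change was 0.017 (SE 0.051, 95% interval -0.10 to 0.13, limma adjusted p = 0.782), so the data allow a fold from 0.94 to 1.09; with total-count scaling the value was -0.079, and without BEZ235 replicate 2 it was -0.0018. Of all tested genes 98.3% had a larger absolute change.

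NRF1, nuclear respiratory factor 1, which binds many promoters of respiratory chain genes (GSHG0039925, chromosome 7, 129611720 to 129757076), had 1438, 1567 and 1344 normalized counts in BEZ235 libraries, against 1419, 1812 and 1486 in DMSO libraries. DMSO replicate 2 was the highest library and the groups overlapped. The log2 fold change was -0.11 (SE 0.101, 95% interval -0.34 to 0.11, limma adjusted p = 0.349), and it was -0.0057 without DMSO replicate 2. The row contains 3 short unnamed rows with means of 10.8 to 57.6 normalized counts in BEZ235 and 14.2 to 111 in DMSO, whose reads could be shared with it. The highest of them, GSHG0039927, had a log2 fold change of -0.90 (limma adjusted p = 0.0131), and the others did not pass the test.

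Of the orphan receptors, ESRRA was abundant and ESRRG was not. ESRRA, which codes for ERRalpha, a partner of PGC-1 on genes of oxidative metabolism (GSHG0006332, chromosome 11, 64305524 to 64316743), had 6445, 6645 and 6549 normalized counts in BEZ235 libraries, against 5937, 5941 and 6476 in DMSO libraries. DMSO replicate 3 lay within the BEZ235 range, above BEZ235 replicate 1. The log2 fold change was 0.10 (SE 0.055, 95% interval -0.02 to 0.22, limma adjusted p = 0.137). Quantile normalization placed it past the threshold, at 0.14 (adjusted p = 0.0393), total-count scaling gave 0.0025, and over all alternatives the adjusted p ran from 0.0393 to 0.977. The 3′ end of the ESRRA row overlaps TRMT112, which had 26088 normalized counts in BEZ235 and 21868 in DMSO and a log2 fold change of 0.25 (limma adjusted p = 0.000903), and the strand of the counts is not stated. ESRRG, which codes for ERRgamma (GSHG0003569, chromosome 1, 216503246 to 217090568), had 0 reads in the BEZ235 arm and 2 reads, both in DMSO replicate 1, in the DMSO arm.

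The lipid receptors stayed close to their DMSO levels. PPARA, a fatty acid receptor that drives fatty acid oxidation (GSHG0028735, chromosome 22, 46150526 to 46243756), had 7131, 7403 and 7182 normalized counts in BEZ235 libraries, against 6997, 7149 and 6902 in DMSO libraries. The groups overlapped between BEZ235 replicate 1 and DMSO replicate 2. The log2 fold change was 0.045 (SE 0.049, 95% interval -0.06 to 0.15, limma adjusted p = 0.441), which became -0.051 with total-count scaling. The PPARA row overlaps CDPF1, with 4180 normalized counts in BEZ235 and 3476 in DMSO. CDPF1 rose by 0.27 on the log2 scale (limma adjusted p = 0.0116), and its reads could be shared with PPARA.

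PPARD, a related receptor expressed in most tissues (GSHG0036697, chromosome 6, 35342558 to 35428178), had 1294, 1270 and 1288 normalized counts in BEZ235 libraries, against 1301, 1161 and 1385 in DMSO libraries. The BEZ235 values lay inside the DMSO range. The log2 fold change was 0.0058 (SE 0.083, 95% interval -0.18 to 0.19, limma adjusted p = 0.956), with a value of -0.090 under total-count scaling and -0.064 without DMSO replicate 2.

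MTFP1 (GSHG0028536, chromosome 22, 30425664 to 30429054) had 4721, 4954 and 4412 normalized counts in BEZ235 libraries, against 3597, 4457 and 3545 in DMSO libraries. The groups overlapped, since DMSO replicate 2 lay above BEZ235 replicate 3. The means were 4695 ± 272 in BEZ235 and 3867 ± 512 in DMSO (SD, n = 3 each), a log2 fold change of 0.29 (SE 0.088, 95% interval 0.09 to 0.48, limma adjusted p = 0.0143). The call was lost without BEZ235 replicate 2 (adjusted p = 0.0623), without DMSO replicate 3 (0.0666), without the mean-variance trend (0.0735) and with total-count scaling (0.122), and the adjusted p ran from 0.000127 to 0.122 over all alternatives. An unnamed row with 11.5 normalized counts in BEZ235 and 8.89 in DMSO lies inside MTFP1.

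**Figure D2:**
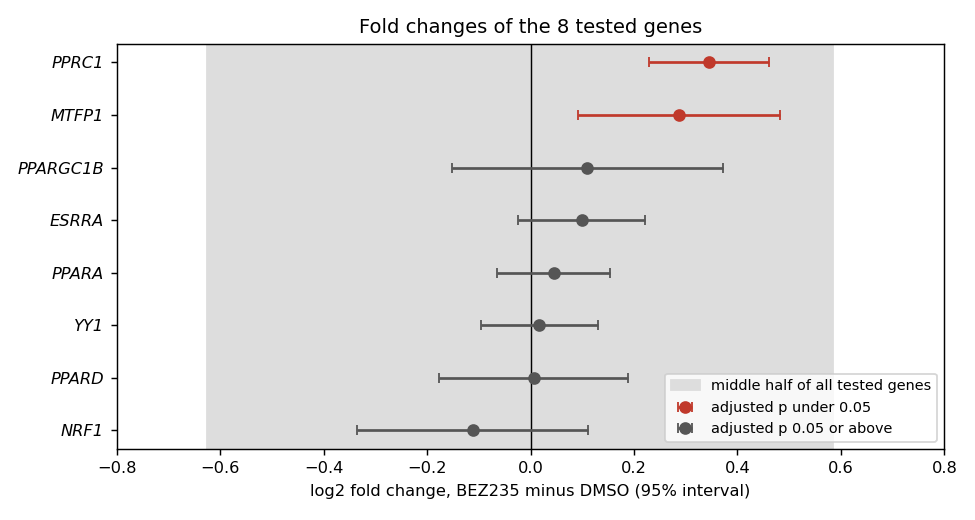
Log2 fold changes, BEZ235 minus DMSO, of the 8 tested genes with 95% intervals from limma; red marks an adjusted p under 0.05 and the grey band spans the middle 50% of all tested genes, from -0.63 to 0.58. All 8 estimates lie within the band, and the intervals of PPRC1 and MTFP1 do not include 0.

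The order of the 10 genes by level per kb of exon was nearly the same in both arms. In BEZ235 libraries YY1 led with 3967 ± 155 normalized counts per kb, before MTFP1 with 3354 ± 194, ESRRA with 2674 ± 40.8 and PPRC1 with 2230 ± 107. PPARA followed with 720 ± 14.4, NRF1 with 393 ± 30.3, PPARD with 288 ± 2.84 and PPARGC1B with 49.8 ± 6.90. In DMSO libraries the first 8 places were the same, from YY1 with 3919 ± 97.3 to PPARGC1B with 45.9 ± 1.80. Neighbours in the order had separate ranges except for MTFP1, at 2532 to 3184 per kb, and ESRRA, at 2425 to 2646 per kb, in DMSO, and for PPARGC1A and ESRRG in both arms.

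**Figure D3:**
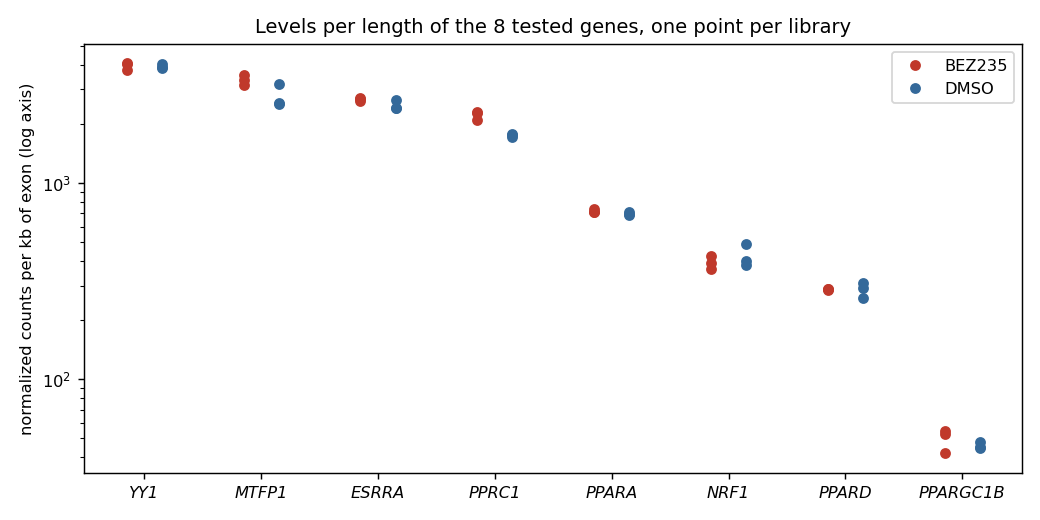
Normalized counts per kb of exon on a log axis for the 8 tested genes, with 1 point per library, BEZ235 in red left of DMSO in blue. PPARGC1B lies far below PPRC1, at 49.8 against 2230 per kb in BEZ235 libraries and 45.9 against 1755 in DMSO libraries.

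The genes whose profile over the 6 libraries came closest were looked up for YY1, ESRRA and MTFP1 among 15120 named genes with a mean of at least 100. Likeness was the Euclidean distance between log2 values centred on each gene's mean. BLCAP (distance 0.022), CNPPD1 (0.027) and NKRF (0.029) were nearest to YY1. SERPINF1 (0.054), CAPN15 (0.057) and LRPAP1 (0.060) were nearest to ESRRA, and ELK3 (0.059), LINC01550 (0.060) and TCF7L2 (0.073) to MTFP1. The genes nearest to YY1 (limma adjusted p 0.644 to 0.913) and to ESRRA (0.0536 to 0.217) did not pass the test. Those nearest to MTFP1 did (0.0113 to 0.0321). For YY1 and ESRRA the likeness is thus largely one of small differences between libraries, and shared regulation was not tested. PPARGC1A was too low for such a comparison.

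The surroundings of these genes were described with 6 lists of 150 distinct genes, 7 of which stand in more than 1 list. Of the 146 tested, 53 rose and 60 fell, 77.4% in all, against 66.3% of all tested genes. These shares, and those of the single lists below, were not matched for level or SE. The median SE over all tested genes was 0.114, and a gene with a smaller SE passes at a smaller change.

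Transcripts of proteins that act on PGC-1 or dock with it changed in both directions. Of 25 genes, 8 rose and 10 fell (72.0% called), and the median over the list was -0.079 on the log2 scale, against -0.00085 over all tested genes. NRIP1, a corepressor that opposes PGC-1 in fat and muscle, rose to 3424 ± 5.34 normalized counts in BEZ235, against 1407 ± 184 in DMSO, a log2 fold change of 1.29 (SE 0.088). MYBBP1A, which can bind and repress PGC-1alpha, rose by 0.70 (SE 0.055), and the acetyltransferase EP300 by 0.58 (SE 0.073). The nuclear receptor coactivator NCOA3 had a log2 fold change of -0.77 (SE 0.060), LPIN1, a phosphatidate phosphatase that also works with PGC-1alpha, of -0.74 (SE 0.065), and MAPK14, the p38alpha kinase that activates PGC-1alpha, of -0.59 (SE 0.059).

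Among other factors of biogenesis and nuclear receptors, 5 of 24 tested genes rose and 8 fell, 54.2% in all, with a median of -0.089. The 8 include HNF4A, which was at 0 in every BEZ235 library and passed the filter through its DMSO libraries alone. With BEZ235 at 0 it could pass only as a gene higher in DMSO, so its direction was fixed by passing the filter. GABPB1, the partner subunit of the respiratory factor GABP, fell to 1367 ± 48.2 normalized counts in BEZ235, against 3886 ± 381 in DMSO, a log2 fold change of -1.50 (SE 0.079). NFE2L2, which codes for the oxidative stress factor NRF2 and is unrelated to NRF1, fell to 8088 ± 560 in BEZ235, against 16868 ± 405 in DMSO. MEF2D, a factor that PGC-1alpha coactivates in muscle, had a log2 fold change of -0.64 (SE 0.064). YY2, a retrocopy of YY1 with a similar DNA-binding domain, rose to 790 ± 35.7 in BEZ235, against 418 ± 15.7 in DMSO; it lies within the row of MBTPS2. The nuclear receptors NR2F2 and THRA also rose, by 0.61 (SE 0.078) and 0.39 (SE 0.069) on the log2 scale.

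Genes reported as targets of NRF1 or GABP fell more often than they rose. Of 30 genes, 18 fell and 7 rose (83.3% called), and their median was -0.27 on the log2 scale. COX17, a copper chaperone of cytochrome oxidase, fell to 3404 ± 213 normalized counts in BEZ235, against 13356 ± 843 in DMSO. CYCS, cytochrome c, fell by 1.75 on the log2 scale (SE 0.058) and NDUFS8, a complex I subunit, by 0.88 (SE 0.047). HSPD1, the mitochondrial chaperonin, rose by 1.26 (SE 0.059), TFB2M, a mitochondrial transcription factor, by 0.85 (SE 0.059), and ATP5F1C, a subunit of ATP synthase, by 0.45 (SE 0.047). TFAM, the packaging factor of the mitochondrial genome and the best known target of NRF1, did not pass, at -0.048 on the log2 scale (SE 0.051) with a limma adjusted p of 0.423; it was named outside the selection rule, after its value was seen.

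Genes reported as ESRRA targets were split, with 9 of 24 higher and 10 lower (79.2% called) and a median of 0.065; with total-count scaling 5 were higher and 10 lower. The rises of the genes named by smallest p were moderate, 0.38 for the complex III subunit UQCRFS1 (SE 0.050), 0.38 for the complex I subunit NDUFA9 (SE 0.053) and 0.33 for the ATP synthase subunit ATP5F1A (SE 0.055). The citrate cycle gene IDH3A fell to 5249 ± 150 normalized counts in BEZ235, against 8886 ± 390 in DMSO. The complex I subunit NDUFS1 fell by 0.48 on the log2 scale (SE 0.054) and the malate dehydrogenase MDH1 by 0.44 (SE 0.049).

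Of 27 tested genes reported as PPAR targets, 14 rose and 7 fell (77.8% called); on the log2 scale their median was 0.32 and their mean 0.093. ACAA2, a thiolase of mitochondrial fatty acid oxidation, rose to 7775 ± 535 normalized counts in BEZ235, against 3841 ± 104 in DMSO. The peroxisomal thiolase ACAA1 rose by 0.56 on the log2 scale (SE 0.066) and HADHB, a subunit of the trifunctional protein, by 0.35 (SE 0.048). VLDLR, the receptor of very low density lipoprotein, fell to 390 ± 34.9 in BEZ235, against 6971 ± 135 in DMSO, a log2 fold change of -4.16 (SE 0.079). ACSL1, which activates fatty acids, and ACADVL, which starts the oxidation of very long chains, fell by 1.24 (SE 0.074) and 0.76 (SE 0.049) on the log2 scale.

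The fission and fusion genes around MTFP1 had 12 of 23 members higher and 10 lower (95.7% called), with a median of 0.16; with total-count scaling 8 were higher and 10 lower. PHB1 and PHB2, the prohibitins of the inner membrane, rose by 0.98 (SE 0.061) and 0.68 (SE 0.051) on the log2 scale, and MTFR1L, a regulator of mitochondrial shape, by 0.92 (SE 0.066). Its relative MTFR2 fell to 208 ± 8.76 normalized counts in BEZ235, against 1182 ± 38.0 in DMSO, and MTFR1 had a log2 fold change of -0.46 (SE 0.057). The dynamin DNM2 had one of -0.46 (SE 0.057).

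The 36 genes that the rule named from the 6 lists had limma adjusted p from 6.9e-11 for VLDLR to 0.000461 for THRA. None of them lost its call or changed direction in any of the 18 alternatives. They were chosen for the smallest adjusted p in these same libraries, so this is not independent support. MYBBP1A, MAPK14, GABPB1, THRA, YY2, NR2F2, ATP5F1C, IDH3A, NDUFS1, ACADVL, ACAA1, VLDLR, MTFR1L, PHB2 and DNM2 overlap another expressed row, and CYCS, HSPD1 and PHB1 have processed pseudogenes, so their reads could be shared.

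**Figure D4:**
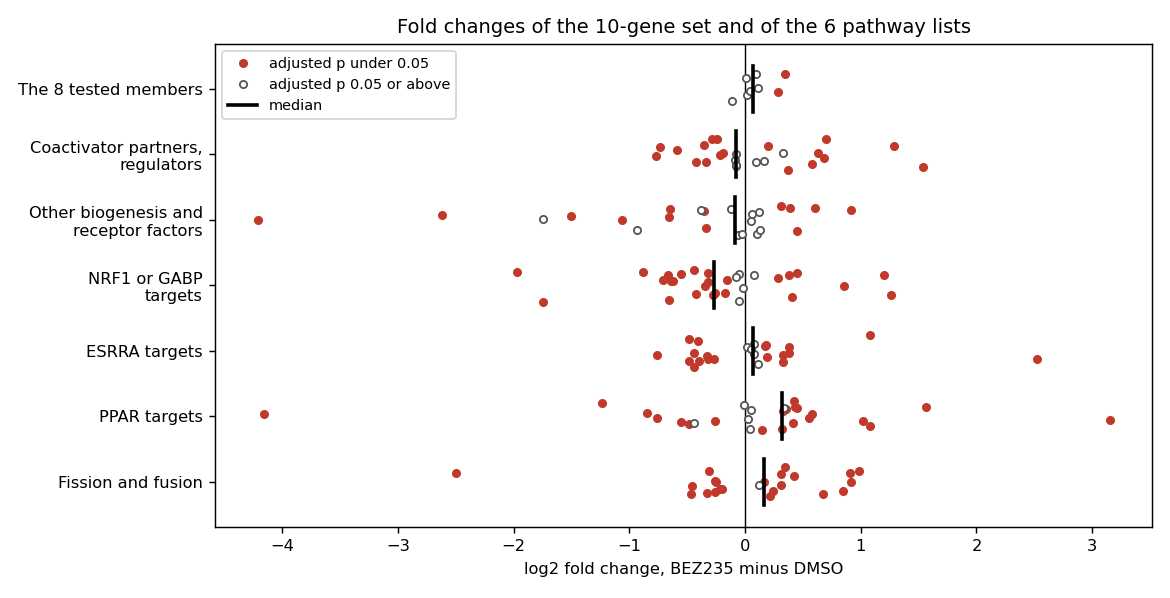
Log2 fold changes, BEZ235 minus DMSO, of the 8 tested members and of the tested genes of the 6 lists; filled red points passed the test, open points did not, and black bars are medians. The members span -0.11 to 0.35, and the list medians run from -0.27 for NRF1 or GABP targets to 0.32 for PPAR targets.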

How the data were processed

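The authors deposited a table of normalized read counts per gene, a non-negative signal given for each of the 6 libraries; rows are FASTDB genes with hg38 coordinates, per the file headers. The tools STAR 2.4.0, SAMtools, Picard, FastQC and DESeq appear in the listing, per the submitters' processing notes, without their roles. Control columns were matched to DMSO samples by number. Each column held whole multiples of 1 step (0.835 to 1.16 normalized counts), so whole reads were recovered for 100% of values within 0.01. On these reads 15744 genes passed with edgeR 4.0.16 and 15706 with DESeq2 1.42.0; 15863 passed in the test reported here, limma 3.58.1 (R 4.3.3) with a mean-variance trend on log2(normalized count + 1), two-sided, group as the only term. Fold changes on this scale understate those of low genes. Limits from counts include counting error alone, as no molecular identifiers were given that would separate molecules from PCR copies. Libraries of an arm differed beyond sampling noise (mean chi-square of 16.7 to 147 per gene). The members, the lists and the naming rule were chosen with earlier results of these data known. The rule names all members, up to 3 genes per list and direction with the smallest adjusted p, and the 3 nearest profiles of YY1, ESRRA and MTFP1. Scripts were tested on simulated data. The alternatives were other scalings, a pseudocount of 0.5 or 10, a stricter filter (50) or none, no trend, a replicate block, both count tests and leaving out each library.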

Additional observations from a re-analysis of the deposited data

How the results depend on the processing

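PPRC1 kept its call in all 18 alternatives, with log2 fold changes from 0.25 to 0.39 and adjusted p from 9.28e-09 to 0.00466. MTFP1 fell short of the threshold with total-count scaling (0.19) and without the trend (0.29, adjusted p = 0.0735), and ran from 0.23 to 0.39 when each library was left out; 1 member was then called with total-count scaling, 1 without the trend and 1 to 2 with a library left out. ESRRA passed with quantile normalization (0.14). The values that changed sign had not passed the test: with total-count scaling YY1 had -0.079, PPARA -0.051 and PPARD -0.090, and with a library left out YY1 ran from -0.0018 to 0.050 and PPARD from -0.064 to 0.063. Total-count scaling moved the median of all genes by -0.097; the causes of the other changes were not tested. The summed counts called in the 6 lists stayed within 1.5 times their values in every alternative, but with total-count scaling the split became 5 higher and 10 lower for ESRRA targets (9 and 10 as reported) and 8 higher and 10 lower for fission and fusion genes (12 and 10 as reported); the number of called genes ran from 14285 to 16102. The labels give both arms replicates 1 to 3. Over all tested genes, same-numbered libraries deviated together little (r of -0.038, 0.023 and 0.044), and BEZ235 replicate 1 correlated best with DMSO replicate 2 (0.072). With 3 libraries per arm these values cannot show whether the numbers mark pairs. With the replicate block 15917 genes and 2 members were called, and the limma adjusted p was 0.00241 for MTFP1 and 0.239 for NRF1. No alternative values are given for PPARGC1A and ESRRG, because both lie under the filter, with 0 to 2 reads in each library. At such counts an absent transcript and one too rare for this depth cannot be told apart.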

Other observations

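Some genes of the lists differed by more than any tested member, and are given here after their values were seen. Such a difference is common, since 69.0% of all tested genes changed more than PPRC1, the member with the largest change. The genes given here all rose, whereas over the 6 lists 53 genes rose and 60 fell. Among related genes of these lists CPT1B fell by 0.48 on the log2 scale, and PDK4 and CD36 did not pass the test. CAMK4, a calcium-dependent kinase upstream of PPARGC1A in muscle, had 137, 175 and 141 normalized counts in BEZ235, against 49.7, 42.4 and 63.4 in DMSO (log2 fold change 1.53, SE 0.241, limma adjusted p = 0.00019). MAOB, a monoamine oxidase of the outer mitochondrial membrane, had 259, 321 and 236 in BEZ235, against 16.2, 79.5 and 74.3 in DMSO; its log2 fold change was 2.53 (SE 0.490, limma adjusted p = 0.000873), and 1.80 without DMSO replicate 1. UCP3, an uncoupling protein of muscle, had 46.3, 73.0 and 45.3 in BEZ235, against 16.2, 18.6 and 17.5 in DMSO. SLC2A4, the insulin-responsive glucose transporter, had 315, 304 and 371 in BEZ235, against 173, 115 and 147 in DMSO. FABP3, a fatty acid carrier of muscle, had 671, 601 and 529 in BEZ235, against 265, 225 and 376 in DMSO.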
